A study of Homo sapiens with 6 samples.

Results

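The 78 genes described here carry a symbol made of MRPL or MRPS, a number and at most 1 further letter, and they were chosen by symbol alone from the 23024 genes listed in the deposited table. Of these, 49 are MRPL symbols, named for the large subunit of the mitochondrial ribosome, and 29 are MRPS symbols, named for the small subunit. A further 5 symbols with the same stem and a suffix, antisense or divergent transcripts, were left out. No measured value chose a member, but the family was proposed with results of the same comparison known, so the counts below describe these genes and support no statement about the family against others.

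RNA was sequenced from 5637 cells, an established human bladder carcinoma line, in 2 groups of 3 libraries. The group NC carries the genotype label WT and the group sh-RAD51C, which has a short hairpin RNA against RAD51C, carries the label RAD51C knockdown. The labels call the cells transfected and do not say what NC stands for, what the control cells received, which hairpin was used, whether a group is a pool or a clone, or whether the cells of its 3 libraries were cultured separately. The p-values below thus rest on variation among libraries that could be purely technical.

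The mitochondrial ribosome translates the few proteins encoded by mitochondrial DNA, which are core subunits of the respiratory chain and of ATP synthase. Its RNA comes from mitochondrial DNA, whereas all of its proteins are encoded in the nucleus, made in the cytosol and imported. Part of the set has counterparts in the bacterial ribosome, and the rest, gathered mainly at the surface, is found only in mitochondria. The symbols do not follow the structure throughout: MRPS30 and MRPS18A are proteins of the large subunit, and MRPS36 is now known as a component of the 2-oxoglutarate dehydrogenase complex.

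The genes lie on 21 chromosomes, with at most 8 on any of them. A RefSeq promoter window, from 250 bases before to 50 bases after an annotated start (build GRCh38.p14), was searched for 69 of the 78 genes. The first window of each gene was used. Upstream parts of 250 bases are shown for 3 genes with large differences between the groups that are described below. MRPL12 encodes a protein of the flexible stalk that contacts translation factors, and MRPL3 and MRPS23 encode proteins of the large and small subunit. Capitals mark matches to the ETS factor motif CCGGAAG or its reverse complement, of which MRPL3 and MRPS23 each hold 1 and MRPL12 none. MRPL1, whose fold change was larger than that of MRPS23, was also searched, held no ETS match and is not shown.

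MRPL12, chr17:81703117-81703366, plus strand: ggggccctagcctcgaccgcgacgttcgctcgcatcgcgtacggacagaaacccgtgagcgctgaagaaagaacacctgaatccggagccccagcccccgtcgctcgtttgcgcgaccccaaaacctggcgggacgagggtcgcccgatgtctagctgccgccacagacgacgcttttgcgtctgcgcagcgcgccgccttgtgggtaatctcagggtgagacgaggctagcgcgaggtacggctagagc
MRPL3, chr3:131502972-131503221, minus strand: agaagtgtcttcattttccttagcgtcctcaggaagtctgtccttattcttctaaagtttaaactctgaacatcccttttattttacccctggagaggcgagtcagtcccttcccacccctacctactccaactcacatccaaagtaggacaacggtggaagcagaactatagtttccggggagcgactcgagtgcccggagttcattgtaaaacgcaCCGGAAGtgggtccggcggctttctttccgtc
MRPS23, chr17:57850045-57850294, minus strand: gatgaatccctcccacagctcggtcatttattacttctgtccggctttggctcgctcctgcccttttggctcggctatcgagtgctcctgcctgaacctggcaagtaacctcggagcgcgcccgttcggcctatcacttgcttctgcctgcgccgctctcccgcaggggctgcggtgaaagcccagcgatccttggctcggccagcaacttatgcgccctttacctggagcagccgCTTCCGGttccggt

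The 300 bases were searched on both strands for 4 motifs. The YY1 motif AAGATGGC was found in 20 of the 69 member promoters (29%), against 5.97% of the 9031 promoters of tested genes outside chromosome 8. The ETS motif was found in 29 of 69 (42%), against 20.8%. Matches to the NRF1 motif were found in 8 members (11.6%, against 12.5%) and to the E-box CACGTG, bound by MYC and related factors, in 6 members (8.7%, against 10.3%). ETS and YY1 matches occurred together in 8 members, and 0 of those matches overlapped. These are matches of letters, not binding sites, and were compared without a test. The YY1 motif contains ATG, the letters of a start codon. Matches that lie over a translation start, of the member or of a gene on the other strand, were not set apart. The part of start codons in the YY1 shares was not tested.

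The first YY1 match of each promoter, counted from its upstream end, began after the annotated start in 15 of the 20 promoters and before it in 5. The 28 bases around that first match, 1 of 2 in MRPL52, are shown for 6 genes called higher in sh-RAD51C. These were chosen as those of largest fold change with a match among the 69 members searched. MRPL15, whose fold change was larger than those of the 6 genes, was not searched. Capitals mark the match, read on the strand of the gene. The match is AAGATGGC in 4 of them and its reverse complement in MRPL32 and MRPS12.

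MRPL32, chr7:42932144-42932171, plus strand: cccgcgctccGCCATCTTtacccgaaga
MRPS30, chr5:44808950-44808977, plus strand: atcgcgggcaAAGATGGCggcggccagg
MRPL38, chr17:75904861-75904888, minus strand: ggccggagggAAGATGGCggcgccctgg
MRPS18B, chr6:30617853-30617880, plus strand: ggcgtacgtcAAGATGGCggcgtctgta
MRPS12, chr19:38930722-38930749, plus strand: catggacgcaGCCATCTTggaccgggaa
MRPL52, chr14:22829779-22829806, plus strand: acgatgacccAAGATGGCggagccgtga

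Matches to YY1 were held by 15 of the 46 searched promoters of members called higher (32.6%). They were held by 5 of the 23 searched promoters of the other members (21.7%). MRPL13, MRPL15, MRPL21 and MRPL35 were also called higher, but their promoters were not among those searched. For the ETS motif the counts were 17 of 46 (37%) and 12 of 23 (52.2%). The bar plot sets the shares of the 69 members beside those of all genes tested.

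**Figure D1:**
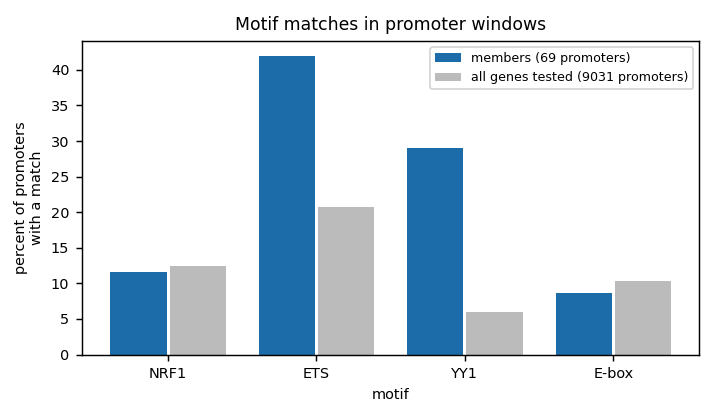
Percent of promoter windows with at least 1 match, for 4 motifs, in the 69 members searched (blue) and the 9031 tested genes searched (grey). Chromosome 8 was left out of both. The members exceed all genes for ETS (42% against 20.8%) and YY1 (29% against 5.97%), and are near them for NRF1 and the E-box. YY1 matches that lie over a start codon were not set apart.

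Levels are given as FPKM, a read or fragment count divided by the length of the gene model and by the size of the library, as the authors calculated it. Whole reads behind each value could be inferred, with totals of 36068282 to 37560184 in NC and 37104318 to 38079825 in sh-RAD51C. RAD51C itself stood at 14.7, 13.2 and 13.6 FPKM in NC 1, 2 and 3 and at 3.51, 3.09 and 2.95 FPKM in sh-RAD51C 1, 2 and 3, lower in 3 of 3 libraries than in any NC library (exact two-sided permutation p = 0.1, the smallest that 3 libraries against 3 allow; limma adjusted p = 7.16e-09). All 6 epithelial markers averaged at least 1 FPKM (sums of 1809 to 1864 FPKM in NC and 1971 to 2051 in sh-RAD51C), but they did not move together. KRT5 fell from 686 ± 6.81 to 301 ± 3.04 FPKM (SD, n = 3) and CDH1 from 35.5 ± 0.646 to 32.7 ± 0.936 FPKM, while KRT7 rose from 407 ± 19.9 to 685 ± 13.8 FPKM, KRT18 from 265 ± 5.81 to 433 ± 16.6 FPKM, and KRT8 and EPCAM 1.26-fold and 1.42-fold. Of 5 urothelial markers GATA3 and PPARG did, and the uroplakins UPK1B, UPK2 and UPK3A were at or near 0 (sums of 15.3 to 16.5 and 21.6 to 22.3 FPKM). Markers of fibroblasts, of which only COL1A1 averaged at least 1 FPKM, summed to 9.74 to 10.5 FPKM in NC and 6.62 to 7.38 in sh-RAD51C. Those of blood cells (3 of 4 at least 1 FPKM) summed to 96 to 104 and 89.9 to 94.9 FPKM, mostly from LAPTM5, and those of endothelium (0 of 4) to 0.16 to 0.221 and 0.331 to 0.446 FPKM. COL1A2 and PTPRC were at or near 0 in all 6 libraries, whereas COL1A1 averaged 8.38 FPKM and LAPTM5 93.6 FPKM over them. From NC to sh-RAD51C the mean of CD14 fell from 1.57 to 0.573 FPKM and that of CD68 rose from 1.72 to 2.24 FPKM. The part that these cell types have in the results below was not tested.

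Of the 78 members, 77 averaged at least 1 FPKM over the 6 libraries and were tested. The exception, MRPS24, was listed at 0.208, 0.12 and 0.16 FPKM in NC and 0.236, 0.0808 and 0.118 FPKM in sh-RAD51C. It shares exons with the readthrough gene URGCP-MRPS24 on the same strand, and whether the authors' counting set such shared reads aside was not tested. Among all members 68 averaged at least 10 FPKM and 20 at least 50 FPKM, with a median of 28.5 FPKM. Behind the tested values stood 189 to 6302 inferred reads per gene and library.

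The levels spanned 34.2-fold from the lowest tested member to the highest. MRPL12 averaged 130 FPKM over the 6 libraries, MRPL51, a protein of the large subunit found only in mitochondria, 120 FPKM, and MRPL33, with a bacterial counterpart, 95.3 FPKM. The order of the first 2 differed between the groups. MRPL51 held 118, 119 and 116 FPKM in NC and 126, 122 and 121 FPKM in sh-RAD51C, above MRPL12 in every NC library and below it in every sh-RAD51C library. MRPL33 and MRPS7, at 95.3 and 94.6 FPKM, were not separated by more than their spread.

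At the low end, MRPL42 averaged 3.8 FPKM, MRPS11 5.09 FPKM and MRPS25 6.23 FPKM. A low level per length was not always a low number of reads. MRPL42 held 1978 to 2561 inferred reads per library, where the median member averaged 1727.5, over an inferred gene model of 15560 bases, whereas the median model of the members was 1550 bases. MRPS23 likewise stood at 11.9 FPKM in NC with 2425 to 2521 reads over 5609 bases. The level order per length therefore rests in part on the authors' gene models.

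In sh-RAD51C the members were mostly higher than in NC by a small amount. Of the 77 tested, 50 were called higher and 0 lower (limma on log2(FPKM + 1), Benjamini-Hochberg adjusted p under 0.05 over 11152 genes), and 27 were not called. Among all genes tested, 23.2% were called higher and 26.2% lower. The fitted log2 fold change was above 0 in 71 members, with a median of 0.18 and a range from -0.10 to 0.55, against a median of -0.01 over all genes tested. In 52 members every sh-RAD51C library lay above every NC library and in 0 below, where the shares over all genes were 27.6% and 30.8%, or 58.4% in either direction. Since the family was proposed with this contrast known, these shares are printed for scale and nothing is read from them.

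**Figure D2:**
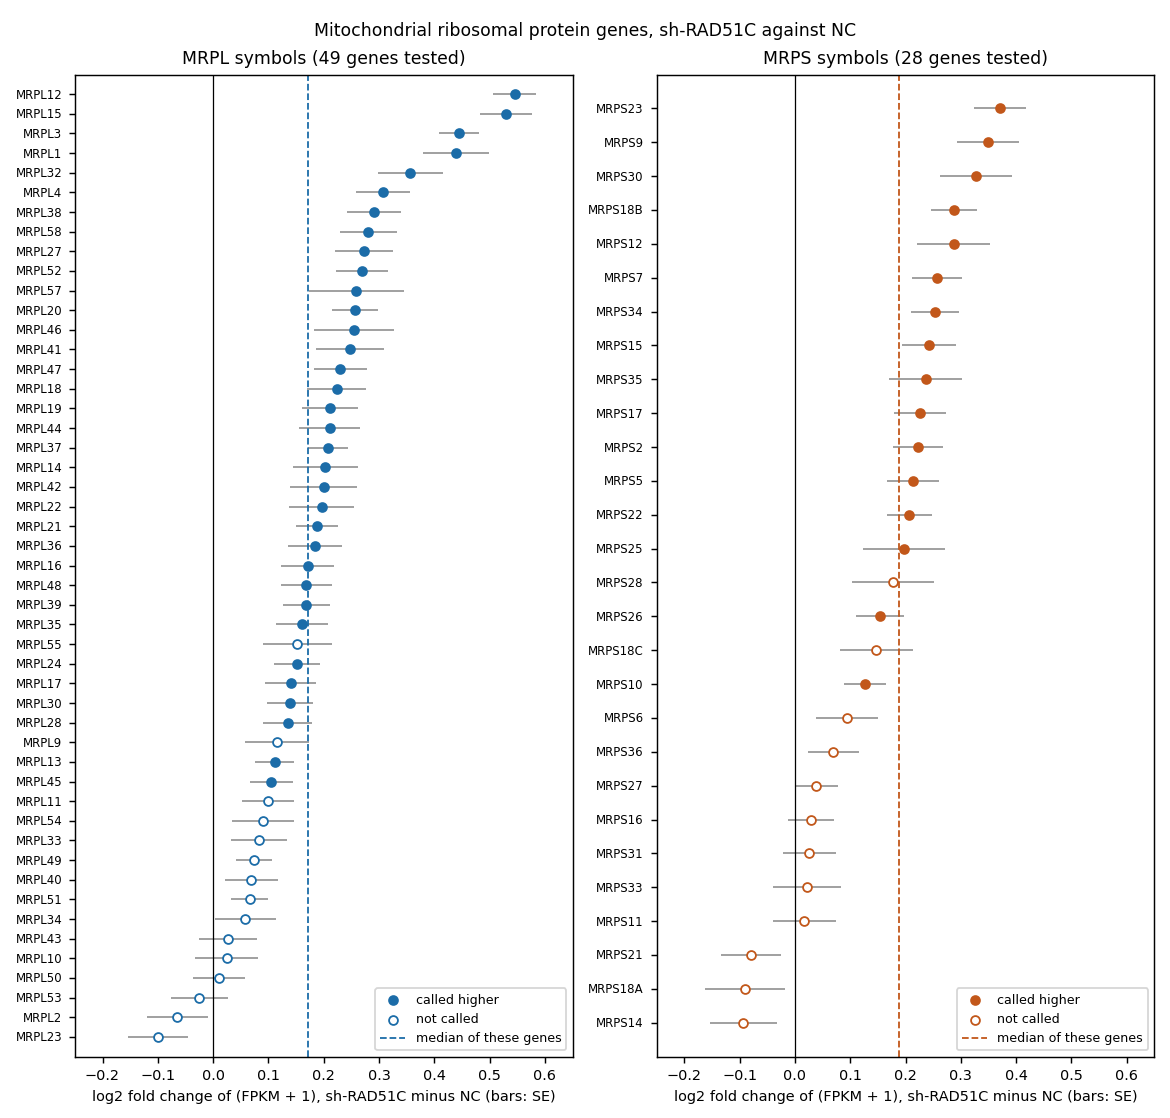
Log2 fold change of (FPKM + 1), sh-RAD51C minus NC, for the 49 MRPL and 28 MRPS genes tested (points, with bars for the SE of 3 libraries against 3), filled where called higher. The dashed lines are the medians, 0.17 for MRPL and 0.19 for MRPS, and 6 genes lie to the left of 0.

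Genes of both subunits were among those called higher. They made up 34 of the 49 MRPL genes (median log2 fold change 0.17) and 16 of the 28 MRPS genes tested (median 0.19). Summed over all MRPL genes, the level was 1727, 1732 and 1743 FPKM in NC and 2110, 1977 and 1954 FPKM in sh-RAD51C. The MRPS sum was 781, 771 and 792 FPKM in NC and 925, 872 and 849 FPKM in sh-RAD51C. For both sums the groups did not overlap, and sh-RAD51C 1 was the highest library.

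The ratio of the MRPL sum to the MRPS sum was 2.21, 2.25 and 2.2 in NC and 2.28, 2.27 and 2.3 in sh-RAD51C. These ranges lie next to each other without overlapping, at a distance smaller than the range within NC. With subunits assigned by structure, that is with MRPS30 and MRPS18A in the large subunit and MRPS36 in neither, 35 of 51 large subunit genes and 15 of 25 small subunit genes were called higher, with medians of 0.17 and 0.20. Members with a bacterial counterpart had 31 of 47 called higher (median 0.18) and those found only in mitochondria 19 of 30 (median 0.18).

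**Figure D3:**
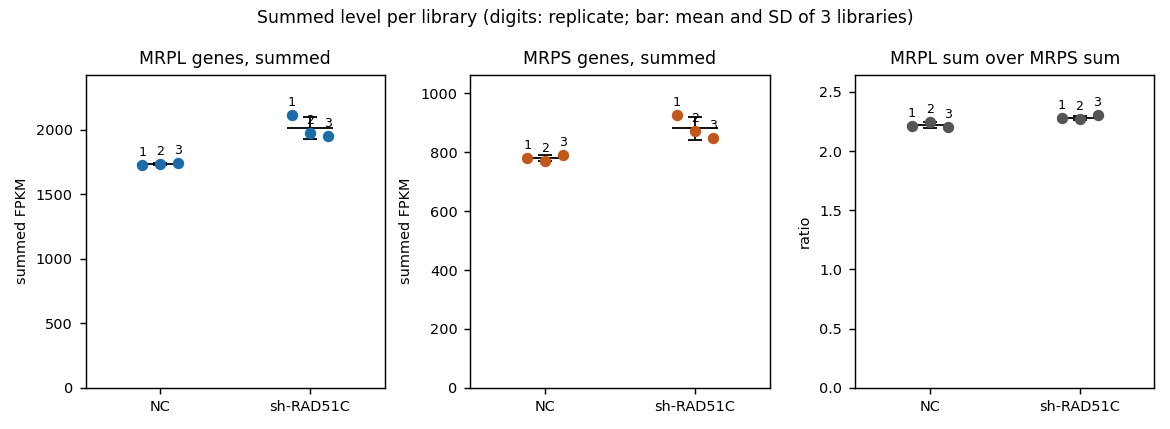
Summed FPKM of the MRPL genes and of the MRPS genes, and the ratio of the 2 sums, in each library (points, labelled by replicate), with the mean and SD of 3 libraries. The sh-RAD51C sums, 1954 to 2110 for MRPL and 849 to 925 for MRPS, lie above the NC sums, 1727 to 1743 and 771 to 792.

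Library sh-RAD51C 1 held the highest value of the 6 in 56 of the 77 members. The median member deviated from its own mean over the 6 libraries by 0.15 on the log2 scale there, and by 0.05 and 0.04 in sh-RAD51C 2 and 3, against -0.09, -0.09 and -0.06 in NC 1, 2 and 3. The same kind of deviation, taken for all genes tested, was also set against gene length. Its slope was most negative in sh-RAD51C 1, at -0.0395 per doubling of the gene model. In the other 5 libraries the slopes ran from -0.00612 to 0.0270. The median model was 1550 bases for the members and 3973.5 bases for all genes tested, and the part of length in the result was tested only by removing its trend. Without sh-RAD51C 1, 44 members were called higher and 3 lower, where 23.4% and 25.6% of all genes were. In that setting 52 members lay wholly above NC and 4 wholly below, against 32.7% and 34.9% of all genes. With each library's trend in length and GC content removed, 56 were called higher and 0 lower, against 28.7% and 25.7% of the genes tested.

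The largest rise was that of MRPL12 (ENSG00000262814.7, chromosome 17 from 81703357 to 81707526, plus strand, 5 blocks of exons). It held 102, 106 and 109 FPKM in NC and 159, 156 and 149 FPKM in sh-RAD51C, a 1.46-fold rise of the means. Its log2 fold change was 0.55 ± 0.0394 (SE; limma adjusted p = 1.07e-06), on 3704 to 6099 inferred reads per library, and its promoter, shown above, has no marked match. Its exons overlap those of AC139530.2 on the same strand, and the part of shared reads in its values was not tested. The other stalk proteins were not called. MRPL10, which anchors the stalk, held 27.8, 33.2 and 31.5 FPKM in NC and 31.6, 31.6 and 30.7 FPKM in sh-RAD51C, with overlapping groups (limma adjusted p = 0.75). MRPL11, at the stalk base, had a log2 fold change of 0.10 and was not called (limma adjusted p = 0.105).

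MRPL15, a protein of the large subunit with a bacterial counterpart, rose nearly as much as MRPL12. Its values were 29.5, 28.5 and 31.6 FPKM in NC and 45.9, 42.9 and 41.9 FPKM in sh-RAD51C (log2 fold change 0.53 ± 0.0477, SE; limma adjusted p = 5.32e-06). MRPL3, which reaches toward the peptidyl transferase centre, stood at 69.2, 70.2 and 74.2 FPKM in NC and rose to 96.9, 98.2 and 96.6 FPKM. MRPL3 lies on chromosome 3 from 131462212 to 131502983 on the minus strand (12 blocks of exons). MRPL1, of the stalk on the opposite side of the subunit, rose from 15.4, 14.4 and 16.8 to 22.7, 20.1 and 21.3 FPKM (limma adjusted p = 0.000116). For all 3 genes the groups were separated by more than the range within either group.

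MRPL32, a protein that is cut by a mitochondrial protease before it joins the ribosome, held 45.2, 45.7 and 45.3 FPKM in NC and 65.5, 56.3 and 54.1 FPKM in sh-RAD51C. Its rise (log2 fold change 0.36, limma adjusted p = 0.000498) was largest in sh-RAD51C 1 and was called without that library as well (limma adjusted p = 0.000188). Among members outside the naming rule, chosen here after their values were seen, MRPL4 and MRPL58, a peptide release factor that became part of the ribosome, rose 1.24-fold and 1.22-fold.

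**Figure D4:**
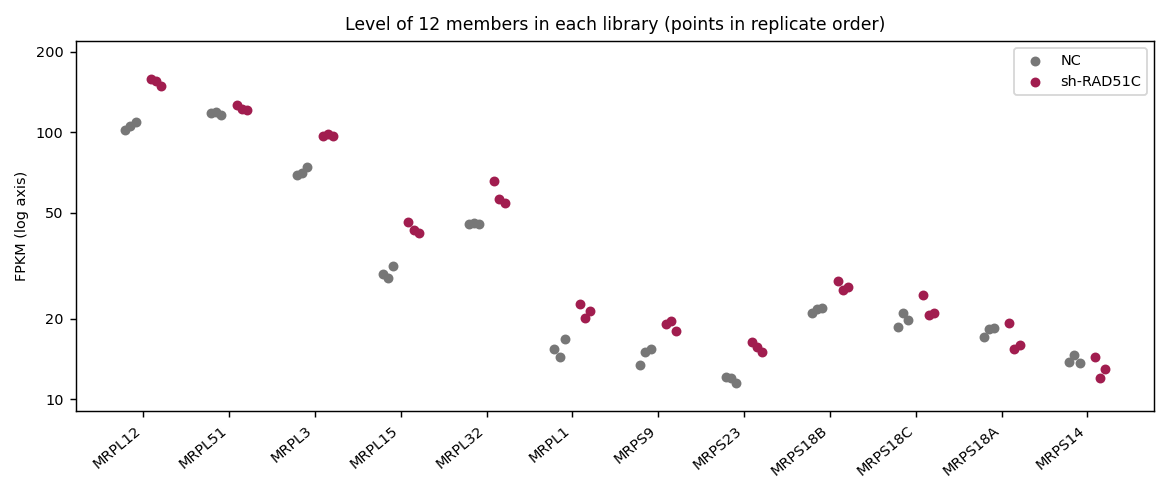
FPKM of 12 members in each of the 6 libraries (log axis; grey NC, red sh-RAD51C, in replicate order). The groups are apart for MRPL12, MRPL3, MRPL15, MRPL32, MRPL1, MRPS9, MRPS23 and MRPS18B, and overlap for MRPS18C, MRPS18A and MRPS14.

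The central protuberance, the top of the large subunit that faces the small one, had 5 of its 6 members called higher. MRPL38 rose from 51.2, 49.1 and 54.2 to 66.7, 59.7 and 63.3 FPKM (limma adjusted p = 0.000523), and MRPL27, whose bacterial counterpart reaches to the catalytic centre, rose 1.21-fold. MRPL18, which in bacteria binds the small ribosomal RNA of the large subunit, rose 1.17-fold and MRPL48 1.13-fold. MRPL46 was called higher although its groups overlapped, with 14.4, 17.2 and 14 FPKM in NC and 19.3, 18.6 and 16.9 FPKM in sh-RAD51C (limma adjusted p = 0.0131). MRPL40 was the member not called, with a log2 fold change of 0.07.

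Around the exit of the peptide tunnel 7 of 8 members were called higher, each by at most 0.23 on the log2 scale. MRPL47 rose 1.18-fold, MRPL44 1.17-fold, MRPL22 1.17-fold, MRPL39 1.13-fold, MRPL24 1.11-fold and MRPL17 1.11-fold. MRPL45, which tethers the ribosome to the inner membrane, stood at 49.2, 49.6 and 49.2 FPKM in NC and 55.7, 50.9 and 53 FPKM in sh-RAD51C (limma adjusted p = 0.0439), and its call was kept in 6 of 17 alternatives, with an adjusted p of up to 0.294. Without sh-RAD51C 1, MRPL17, MRPL22, MRPL45 and MRPL46 were not called (limma adjusted p = 0.0596, 0.0513, 0.0995 and 0.0532). MRPL23 had the most negative value of the family, -0.10, and was not called (limma adjusted p = 0.151).

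In the small subunit the largest rise was that of MRPS23 (chromosome 17 from 57834781 to 57850056, minus strand, 5 blocks of exons). It held 12.1, 12 and 11.5 FPKM in NC and 16.4, 15.6 and 15 FPKM in sh-RAD51C (log2 fold change 0.37 ± 0.047, SE; limma adjusted p = 7.01e-05). MRPS9, in the head of the subunit, held 13.5, 15.1 and 15.5 FPKM in NC and 19.1, 19.7 and 18 FPKM in sh-RAD51C (limma adjusted p = 0.00039). MRPS12, at the decoding site, held 25.7, 24 and 28.2 FPKM in NC and 33.4, 33.4 and 29 FPKM in sh-RAD51C (limma adjusted p = 0.00395). In these 3 genes every sh-RAD51C library was above every NC library, for MRPS12 by less than the range within NC.

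MRPS30, the MRPS symbol whose protein sits in the large subunit, rose from 12.8, 13.7 and 15.5 to 17.6, 17 and 18.9 FPKM (limma adjusted p = 0.0016). MRPS36, of the 2-oxoglutarate dehydrogenase complex, held 13.7, 13.3 and 13.6 FPKM in NC and 15, 14.1 and 13.7 FPKM in sh-RAD51C, and was not called (limma adjusted p = 0.234). MRPS11 and MRPS25, the lowest tested MRPS genes, had log2 fold changes of 0.02 and 0.20, of which that of MRPS25 was called (limma adjusted p = 0.0445). The call of MRPS25 was kept in 9 of 17 alternatives, with an adjusted p of up to 0.181.

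The 3 paralogs MRPS18A, MRPS18B and MRPS18C, which descend from 1 bacterial ribosomal protein, differed in their calls. MRPS18B held 21, 21.7 and 22 FPKM in NC and 27.6, 25.7 and 26.3 FPKM in sh-RAD51C and was called higher (limma adjusted p = 0.000184). MRPS18C held 18.6, 21 and 19.8 FPKM in NC and 24.6, 20.6 and 21.1 FPKM in sh-RAD51C, with overlapping groups (limma adjusted p = 0.086). MRPS18A held 17.1, 18.3 and 18.5 FPKM in NC and 19.3, 15.4 and 15.9 FPKM in sh-RAD51C, where library 1 was above NC and libraries 2 and 3 below it (limma adjusted p = 0.325). The differences between the paralogs' responses were not tested.

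Without sh-RAD51C 1 the 3 members called lower were MRPS18A, MRPS14 and MRPS21, named after their values were seen, with limma adjusted p = 0.00966, 0.0327 and 0.0276. MRPS14, a head protein, held 13.8, 14.7 and 13.7 FPKM in NC and 14.3, 12 and 13 FPKM in sh-RAD51C. MRPS21 held 52.3, 53.3 and 49 FPKM in NC and 52.9, 47.8 and 45.6 FPKM in sh-RAD51C. In each of the 3 genes sh-RAD51C 1 was the highest library of its group.

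Reads of some members could be shared with other genes. Exons of 41 members overlap those of another GENCODE gene on either strand, and 34 members have at least 1 pseudogene named after them. The strand setting of the counting is not given in the sources used here. Among the 20 members with neither, 17 were called higher and 0 lower (median 0.20), against 22 of 40 tested members with exon overlap (median 0.16) and 18 of 34 with a named pseudogene (median 0.13). Some members are in both of the latter sets. The median gene models were 1135.5, 1596.5 and 1747 bases in that order, and the part of shared reads or of length in these counts was not tested.

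Of 5 mitochondrial ribosomal protein genes with other names, 3 were called higher and 0 lower (median log2 fold change 0.21). For this list and those that follow, the shares over all genes tested were 23.2% called higher and 26.2% lower. DAP3, a GTP-binding protein of the small subunit, held 39.1, 39.1 and 39.7 FPKM in NC and 46.3, 45.3 and 45.5 FPKM in sh-RAD51C (limma adjusted p = 0.000354). GADD45GIP1 of the large subunit and AURKAIP1 of the small rose 1.19-fold and 1.16-fold, the latter not called without a filter on low values (limma adjusted p = 0.0609). PTCD3 and CHCHD1, of the small subunit, had log2 fold changes of 0.06 and 0.10 and were not called.

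The list drawn up for assembly of the ribosome and modification of its RNA had 16 of 31 tested genes called higher and 1 lower (median log2 fold change 0.13). The roles of its genes, LETM1 among them, are not shown by these data. C1QBP, a matrix protein linked to ribosome assembly, rose from 88.6, 90.1 and 92.6 to 136, 126 and 128 FPKM (limma adjusted p = 1.34e-06). RPUSD4, a pseudouridine synthase, and LETM1 both rose 1.26-fold, and MRM1, which methylates the large ribosomal RNA, rose 1.55-fold. NOA1, a GTPase, was the gene called lower, at a limma adjusted p of 0.0497 (named after its value was seen). Its call was kept in 6 of 17 alternatives, with an adjusted p of up to 0.197, and was lost under each of the 3 other scalings. Leaving out NC 1, NC 2 or sh-RAD51C 2 left 10 genes of the list called higher.

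Translation factors of mitochondria had 7 of 16 tested genes called higher and 2 lower (median 0.11). The number called lower was 1 without NC 3, and 3 without sh-RAD51C 1 or with length and GC trends removed. It was 0 where a fold of at least 1.2 was also required. The elongation factor GFM1 held 9.61, 9.73 and 10.8 FPKM in NC and rose to 12.9, 13.5 and 13.7 FPKM, and the RNA-binding protein SLIRP rose 1.23-fold. OXA1L, which inserts the new proteins into the inner membrane, fell from 53.6, 53.3 and 53.5 to 48.1, 44.9 and 45 FPKM (limma adjusted p = 0.000734). Mitochondrial aminoacyl-tRNA synthetases had 7 of 20 called higher and 1 lower (median 0.07), against 23.2% and 26.2% of all genes tested. Among them MARS2, for methionine, held 2.16, 2.1 and 2.35 FPKM in NC and 3.96, 3.71 and 3.95 FPKM in sh-RAD51C.

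Genes of mitochondrial transcription and RNA turnover had 6 of 8 called higher and 0 lower (median 0.25). PNPT1, a subunit of the RNA-degrading complex, rose 1.39-fold, the transcription factor TFB2M 1.37-fold, the polymerase POLRMT 1.21-fold and TFAM, which packs mitochondrial DNA, 1.17-fold. The 13 genes that the ribosome translates had 1 called higher, ND2, and 1 lower, ND5, with a median of -0.01. These counts depended on the setting: under quantile normalization 6 were called higher and 1 lower, with a median of 0.09, with voom 3 and 4, and without sh-RAD51C 1 they were 1 and 4. The calls of ND2 and ND5 were kept in all 16 alternatives that tested them. The groups' summed FPKM of those 13 overlapped, at 68998, 67136 and 65177 in NC and 70968, 63682 and 62798 in sh-RAD51C. All of these lists were chosen with earlier results known.

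Of 7 tested regulators of nuclear genes for mitochondria, 3 were called higher and 2 lower (median -0.03), against 23.2% and 26.2% of all genes tested. MYC held 30.5, 30.3 and 32.3 FPKM in NC and 50.6, 51.9 and 48.7 FPKM in sh-RAD51C, and the coactivator PPRC1 rose 1.46-fold. GABPB1, the partner of the ETS factor GABPA, rose 1.2-fold, while GABPA itself (log2 fold change -0.03) and NRF1 (-0.14) were not called, with limma adjusted p = 0.603 and 0.119. The nuclear receptor ESRRA and YY1 were called lower, with log2 fold changes of -0.14 and -0.10 (limma adjusted p = 0.0262 and 0.0429; NRF1, GABPA and YY1 were named after their values were seen). The call of YY1 was kept in 7 of 17 alternatives and lost with library medians equalised, with trimmed mean scaling and without NC 1, NC 2, NC 3, sh-RAD51C 1 or sh-RAD51C 2 (adjusted p of up to 0.127). That of ESRRA was kept in 12 of 17 and lost without NC 2, NC 3 or sh-RAD51C 3 and with length and GC trends removed (adjusted p of up to 0.158). That of GABPB1 was lost without NC 3 (adjusted p of up to 0.0558). GABPB1 averaged 4.03 FPKM and was not tested among genes of at least 5 FPKM. The calls of YY1, ESRRA and GABPB1 were also lost where a fold of at least 1.2 was required. Coactivators PPARGC1A and PPARGC1B averaged under 1 FPKM and were not tested.

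**Figure D5:**
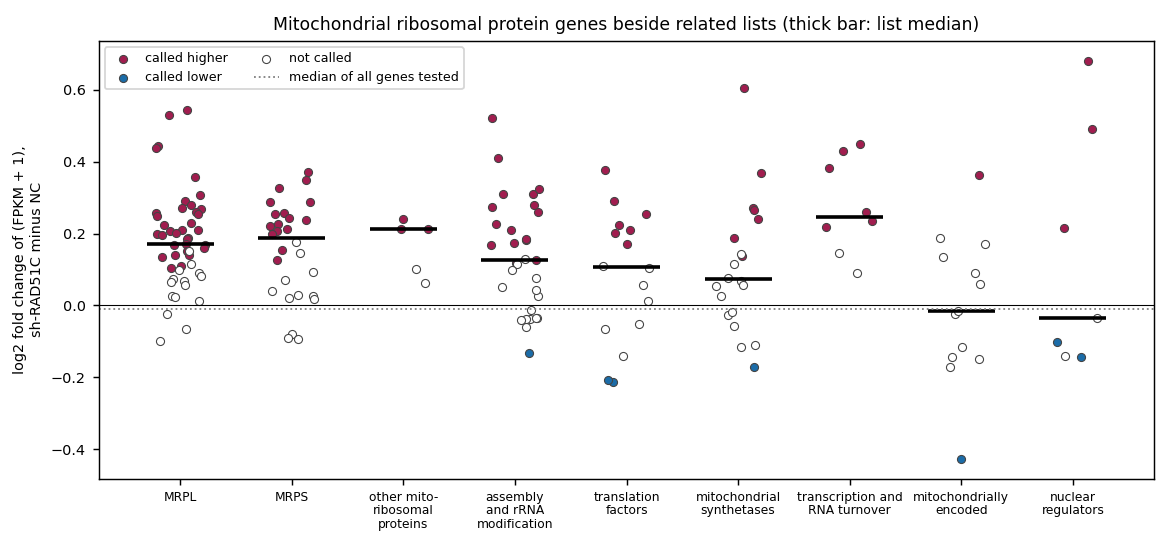
Log2 fold change of (FPKM + 1), sh-RAD51C minus NC, of each gene tested in the MRPL and MRPS sets and in 7 related lists (points, red called higher, blue called lower, open not called), with a thick bar at each list's median. The medians run from -0.03 for regulators to 0.25 for transcription and RNA turnover, and the dotted line at -0.01 is the median of all genes tested.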

How the data were processed

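The authors deposited 1 table of FPKM values for 6 libraries, and each column was matched to a library by its title, with 0 further columns left unused. The genome build is hg38 per the submitters' processing notes, which also list DESeq2 and R 3.2.0 with no step attached. The aligner, counter, strand setting and annotation were not given in the sources used here. The 11152 of 23024 genes whose mean reached 1 FPKM were compared on log2(FPKM + 1). The fit used limma 3.58.1 in R 4.3.3 without covariates, let the prior variance follow the level, and adjusted p-values by Benjamini-Hochberg over all tested genes. A fold change on that scale understates the change of low genes.

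Whole reads were inferred because each FPKM is a multiple of a step set by gene length and library total. The totals were those that the most genes gave with RefSeq lengths, 452 to 465 genes per library. Each gene's length was then solved from its own values in the 6 libraries so that its counts came out whole, within 0.01 reads for 11152 genes. That wholeness is thus in part built in and is no independent check. These served for depth and for voom as an alternative.

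The members and lists were chosen with earlier results of these data known. Named are RAD51C, up to 8 called members per direction with separate groups and the largest fold changes (at most 5 per subunit), the 3 highest and 3 lowest by level, called members of 6 structural groups, and up to 4 called genes per related list with the smallest p. Positions and exons are from GENCODE release 29 (GRCh38, also called hg38), and promoters from RefSeq (GRCh38.p14). Python 3.11.15, pandas 2.3.3, numpy 2.4.6 and scipy 1.17.1 were used otherwise.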

Additional observations from a re-analysis of the deposited data

How the results depend on the processing

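The count of members called higher, 50 of 77, was recomputed under 17 alternatives: another pseudocount, filter, scaling, variance model, unit or threshold, length and GC trends removed, a replicate block, and each library left out. It was 15 when a fold of at least 1.2 was also required, and 38 to 56 in the other 16. No member was called lower except without sh-RAD51C replicate 1, so the count over single omissions ran from 0 to 3. Single omissions gave 39 to 50 members called higher. In all 17 alternatives 15 members were called, and the medians stayed between 0.15 and 0.20 for MRPL and between 0.15 and 0.21 for MRPS. Over the related lists together, 43 genes were called higher and 7 lower, against 19 and 1 with the fold requirement, and 4 to 10 were called lower on omitting single libraries. The 13 mitochondrially encoded genes had no GC value and were not tested with length and GC trends removed. The uncalled log2 fold change of MRPS11, 0.02, ran from -0.0135 to 0.0458 over the omissions. Over all genes, 2589 were called higher and 2922 lower, against 1315 and 1676 with the fold requirement, and 1859 were called lower among genes of at least 5 FPKM. With the replicate number as a block, 49 members were called higher and 0 lower; deviations of same-numbered libraries correlated at 0.19, 0.03 and 0.09, and not every library correlated best with its own number, so the numbers were not taken as pairs. Every tested member had at least 189 inferred reads in each library, and counting error is widest for MRPS28, which had that count.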

Other observations

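Of the 78 members, 17 (21.8%) have a protein-coding gene that starts within 1000 bases upstream on the opposite strand, against 10.1% of all 10576 coding genes tested. MRPL46 and MRPS11 form 1 such pair, 34 bases apart on chromosome 15, in which MRPL46 was called higher (15.2 ± 1.71 to 18.3 ± 1.25 FPKM, SD, n = 3) and MRPS11 was not (5.06 ± 0.198 to 5.13 ± 0.253 FPKM). Of the 11 other partners that were tested, 3 were called higher, 2 lower and 6 were not called by limma. Among all genes tested, 23.2% were called higher and 26.2% lower. TCP1, a subunit of the cytosolic chaperonin and partner of MRPL18, was called higher with a log2 fold change of 0.26, as was SKA3, of the mitotic spindle and partner of MRPL57, at 0.43. EME1, a DNA repair nuclease subunit 6 bases from MRPL27, was called lower at -0.15 while MRPL27 was called higher at 0.27. NDUFS6 and NDUFB5, respiratory chain subunits paired with MRPL36 and MRPL47, had log2 fold changes of 0.02 and -0.05 and were not called, while both of their partners were called higher. These genes were named after their values were seen, and the differences within pairs were not tested.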
